A study of Mus musculus with 9 samples.

Results

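The transcription factors that are known for alternative activation of macrophages were followed here as a group of 10 genes: Myc, Bhlhe40, Bhlhe41, Cebpa, Cebpb, Pparg, Rxra, Ppargc1b, Irf4 and Klf4. They were taken by gene symbol from the deposited expression table, and all 10 were found among its 26157 genes. A transcription factor family is annotated there for 1228 genes, and Ppargc1b, which encodes a coactivator and not a DNA-binding factor, is not one of them. The measurements were made in J774A.1, a macrophage-like line grown from a mouse tumour, and poly-A RNA was sequenced from 9 libraries. The Ctrl group was cultured normally, the M2 group was given 10 ng/mL of the cytokines IL-4 and IL-13, and the Q11 group was given Q11 together with these cytokines, with 3 libraries in each group. The series title calls Q11 a CYP2E1 inhibitor. Its dose, the length of treatment and the cytokine dose of the Q11 group are not given in the sources used here. Nothing in the labels says that the 3 libraries of a group came from separate cultures, so p-values measure only the spread between these libraries.

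IL-4 and IL-13 signal through receptors that share the IL-4 receptor alpha chain and activate the transcription factor STAT6, which enters the nucleus and turns on genes of alternative (M2) activation. The second layer of factors acts beside or after STAT6. MYC pairs with MAX and raises genes of growth and metabolism; PPARG pairs with RXRA as a lipid-sensing nuclear receptor, and PGC-1 beta (Ppargc1b) is a coactivator of mitochondrial genes. IRF4, KLF4 and C/EBP beta are known from mouse macrophages as factors that support M2 genes such as Arg1, while BHLHE40 and BHLHE41 are related repressors that bind E-box sequences.

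Levels are given as TPM (transcript abundance scaled by gene length and to 1 total per library), which can therefore be compared between genes. The reads behind the TPM could be recovered from gene lengths, and came to 15815847 to 17095787 per library in 8 libraries and to 32193523 in Q11 replicate 2. That library held fewer reads than Q11 replicate 3 in only 11 of the 19252 genes read in replicate 3. Against M2 replicate 2, its next lowest library by this count, it held fewer in 1929 of 18870 genes. Q11 replicates 2 and 3 thus share reads, and the calls below are also given after the reads of replicate 3 were taken out of replicate 2 (called separation below). All 10 macrophage markers passed the filter, with a summed level of 12275 to 12687 TPM in Ctrl, 7953 to 8561 TPM in M2 and 8327 to 8382 TPM in Q11, and 5 of them fell in M2 against Ctrl, including Lyz2. Most of the fall in the sum was Lyz2, with a mean of 6859 TPM in Ctrl and 3595 TPM in M2. The 5 markers not called were Adgre1, Csf1r, Cd68, Fcgr1 and Mertk. Summed markers of fibroblasts, T cells, B cells, epithelial cells, hepatocytes, endothelial cells and dendritic cells stayed at or under 4.24 TPM in every library. The neutrophil list, which includes S100a8, summed to 29.5 to 38.0 TPM in Ctrl, 17.2 to 29.5 TPM in M2 and 17.0 to 19.8 TPM in Q11. This sum was almost wholly S100a8, as the means of Mpo and Elane lay under 1 TPM in every group. The part of these marker differences in the results below was not tested, and in bulk RNA fewer cells of a type and less RNA per cell cannot be told apart.

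The 10 genes spanned a wide range of levels. Cebpb was the highest in every group, at 396 ± 33.8 TPM in Ctrl (SD, n = 3), which is 6.22-fold over Bhlhe41, the next gene in Ctrl at 63.7 ± 2.72 TPM. Rxra followed at 54.7 ± 0.439 TPM. Ppargc1b, Cebpa, Klf4, Bhlhe40 and Myc lay together between 13.6 and 22.4 TPM in the Ctrl libraries, and each overlapped its neighbour in that order. Irf4 and Pparg were the lowest, near 1 TPM, and overlapped each other in every group. Among the 880 genes with a transcription factor family that were tested, Cebpb ranked 9 by mean level in Ctrl, while Irf4 ranked 862 and Pparg 880.

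**Figure D1:**
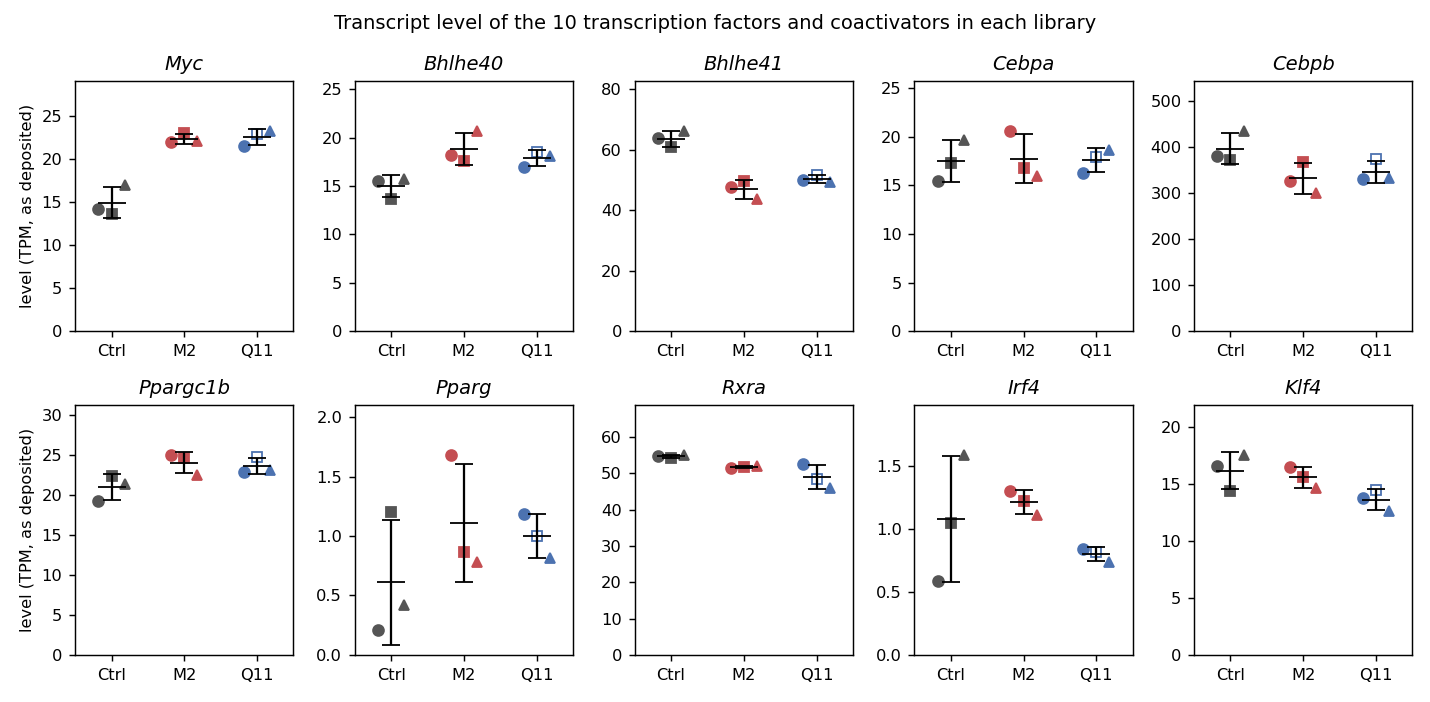
Level of each of the 10 genes in TPM in the 9 libraries, by group, with the mean and SD of 3 libraries; Q11 replicate 2, which holds the reads of Q11 replicate 3, is drawn as an open square. Myc and Bhlhe40 lie higher, and Bhlhe41 lower, in M2 than in Ctrl, with Q11 near M2 for all 3.

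The order of levels changed in places. In M2 Rxra lay above Bhlhe41, which stood above it in Ctrl, and the libraries of the 2 genes did not overlap in either group. In the Q11 libraries the 2 genes overlapped. Myc, the lowest of the middle group in Ctrl, lay next to Ppargc1b in M2 and in Q11, above Bhlhe40, Cebpa and Klf4. Its rank among the 880 factor genes went from 406 in Ctrl to 291 in M2 and 287 in Q11.

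M2 against Ctrl asks what the cytokines did without Q11. Of the 10 genes, Myc and Bhlhe40 rose and Bhlhe41 fell, and the other 7 did not pass the test (limma on log2(TPM + 1), Benjamini-Hochberg adjusted p at 0.05 over all 14207 genes tested). The same rule called 12.6% of all genes tested, 6.88% of them higher and 5.75% lower. The 3 calls held with the shared reads separated, where 9.22% of all genes were called, and limma-voom on the recovered reads called 16.1%. Separation alters only Q11 replicate 2, so the M2 and Ctrl values stay the same. In M2 against Ctrl it moves adjusted p only through the spread shared by all 9 libraries and the set of genes tested. The 3 M2 libraries lay wholly above or wholly below the 3 Ctrl libraries for 6 of the 10 genes, against 28.4% of all genes tested: Myc, Ppargc1b and Bhlhe40 above, and Rxra, Bhlhe41 and Cebpb below. This count of 6 cannot change with separation, and the share of all genes was then 28.7%, over a smaller set of genes tested. Of the 880 factor genes tested, 44 rose and 37 fell (9.20%).

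**Figure D2:**
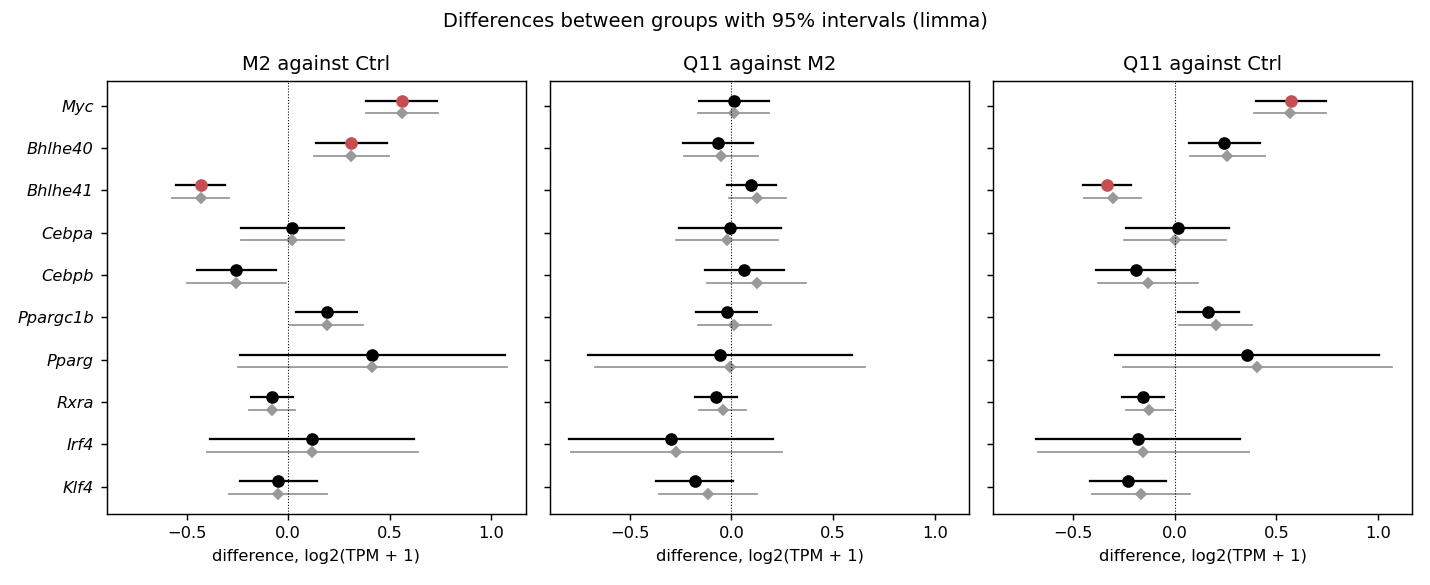
Log2 difference with its 95% interval for each of the 10 genes in the 3 comparisons, on the log2(TPM + 1) scale, with called genes in red and grey diamonds for the fit with the shared reads separated. Myc, Bhlhe40 and Bhlhe41 are called in M2 against Ctrl, none in Q11 against M2, and Myc and Bhlhe41 in Q11 against Ctrl.

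Myc, on chromosome 15 (GRCm38 61985391 to 61990374, plus strand), encodes the basic helix-loop-helix factor that binds E-boxes as a dimer with MAX. It stood at 14.1, 13.6 and 17.0 TPM in the Ctrl libraries, at 22.0, 23.0 and 22.0 TPM in M2 and at 21.5, 22.8 and 23.2 TPM in Q11. Every M2 and Q11 library lay above every Ctrl library, and the M2 and Q11 libraries overlapped. In M2 against Ctrl, Myc rose, its mean TPM reaching 1.50-fold of Ctrl (log2 0.56 ± 0.08 SE, limma adjusted p = 0.00198, and 0.00244 after separation). The rise was the fifth largest among the 880 factor genes tested. It stayed past the threshold under all 19 alternative settings, with adjusted p between 1.38e-04 and 0.0135. In reads, the Ctrl values rested on 186, 187 and 225 and the M2 values on 300, 292 and 286.

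The partners of MYC moved less. Max, the obligate partner, stood at 75.8 ± 0.845 TPM in Ctrl and 79.8 ± 5.64 TPM in M2 (limma adjusted p = 0.394). Of the 10 tested genes in the list of MYC partners, relatives and antagonists, 1 was called, against 12.6% of all genes tested. This was Mxd4, a repressive partner of MAX (log2 0.42, limma adjusted p = 0.0453), a call lost after separation (0.0594). The ratio of Myc to Max in TPM was 0.186, 0.178 and 0.226 in Ctrl, 0.288, 0.266 and 0.286 in M2, and 0.274, 0.303 and 0.302 in Q11, with no overlap between Ctrl and the other groups. This ratio was chosen after the values were seen and is a description.

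Of 25 genes of ribosome biogenesis, nucleotide synthesis and growth that are known as MYC targets, 16 rose in M2 against Ctrl and 1 fell. The list was chosen with earlier results of these data known, so its counts and median are a description. Over all genes tested, 6.88% rose and 5.75% fell. The median log2 difference was 0.16 in the list, against -0.0026 over all genes tested. With the shared reads separated, 13 of the 25 rose and none fell, where 9.22% of all genes were called. The largest rise was that of Tfrc, the transferrin receptor, from 648 to 945 TPM (log2 0.54, limma adjusted p = 1.22e-04). Cad, an enzyme of pyrimidine synthesis, and Srm, spermidine synthase, each rose by a log2 of 0.32. The remaining rises were smaller. Ccnd2, a cyclin, was the gene that fell (1.52 to 0.564 TPM, limma adjusted p = 0.0486), and this call was lost with the shared reads separated (0.0692).

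BHLHE40 and BHLHE41 are close relatives that repress genes with E-boxes, clock genes among them, and both are known from macrophages. Here they went in opposite directions. Bhlhe40, on chromosome 6 (108660629 to 108666925, plus strand), stood at 15.5, 13.7 and 15.8 TPM in Ctrl, 18.2, 17.6 and 20.7 TPM in M2, and 17.0, 18.5 and 18.1 TPM in Q11. Bhlhe41, on the same chromosome (145858243 to 145865558, minus strand), stood at 64.0, 60.8 and 66.2 TPM in Ctrl, 47.6, 49.8 and 43.6 TPM in M2, and 49.9, 51.7 and 49.2 TPM in Q11. No M2 or Q11 library overlapped a Ctrl library for either gene.

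In M2 against Ctrl, Bhlhe41 fell by 0.43 on the log2 scale (SE 0.05, limma adjusted p = 0.0011), its mean TPM reaching 0.738-fold of Ctrl. This call held under all 19 alternatives, with adjusted p between 3.68e-07 and 0.00872, and after separation (0.00288). Bhlhe40 rose, its mean TPM reaching 1.26-fold of Ctrl (log2 0.31 ± 0.08 SE, limma adjusted p = 0.0308), and this call was less firm. It held in 10 of 19 alternatives, with adjusted p between 0.0075 and 0.0863, was kept with the shared reads separated (0.0458), and was lost when any of 6 libraries was left out: Ctrl replicate 1 or 2, M2 replicate 1 or 3, or Q11 replicate 2 or 3. Its log2 difference stayed between 0.24 and 0.36 when each library was left out in turn. Gm43909, an annotated transcript on the other strand, shares 1280 exon bases with Bhlhe41, and the strand setting of the counting is not given in the sources used here. It stood at 2.82 TPM in Ctrl, 2.17 TPM in M2 and 1.15 TPM in Q11, so its level was small beside that of Bhlhe41.

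**Figure D3:**
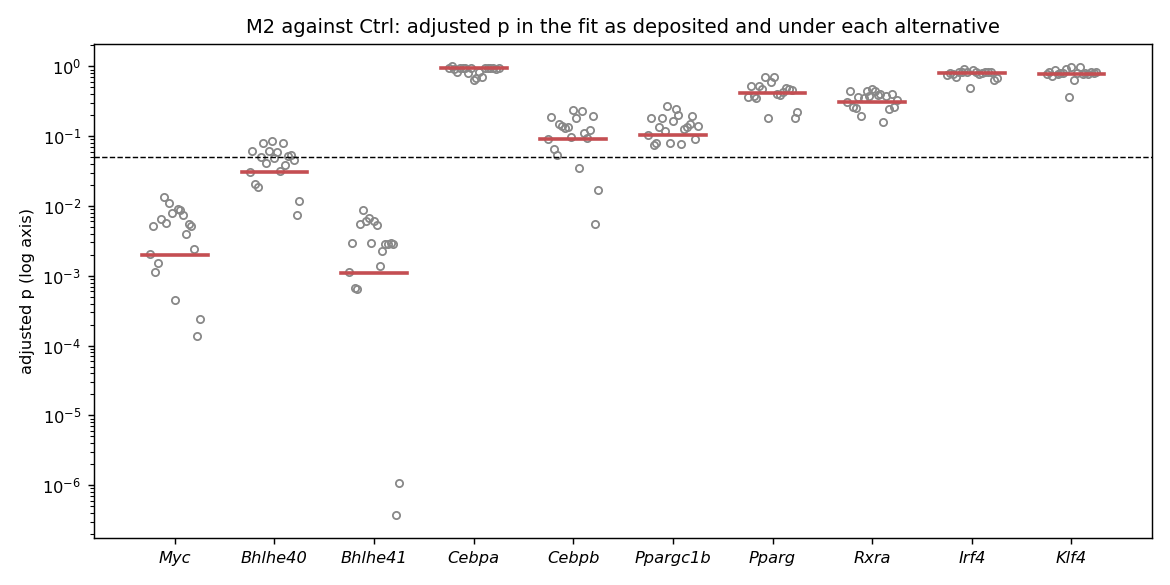
Adjusted p of each of the 10 genes under the fit as deposited (red bars) and under the alternative settings (open circles), in M2 against Ctrl, on a log axis with a dashed line at 0.05. All points of Myc and Bhlhe41 stay below the line, while those of Bhlhe40 lie on both sides of it.

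The ratio of Bhlhe41 to Bhlhe40 in single libraries was chosen after both were seen to move, so it is a description and adds no support. It was 4.14, 4.45 and 4.20 in Ctrl, 2.62, 2.84 and 2.11 in M2, and 2.94, 2.79 and 2.72 in Q11, where replicate 2 came to 2.87 after separation. The lowest Ctrl library was above the highest library of the other groups. The sum of both genes was 74.5 to 82.0 TPM in Ctrl, 64.3 to 67.4 TPM in M2 and 66.9 to 70.2 TPM in Q11.

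**Figure D4:**
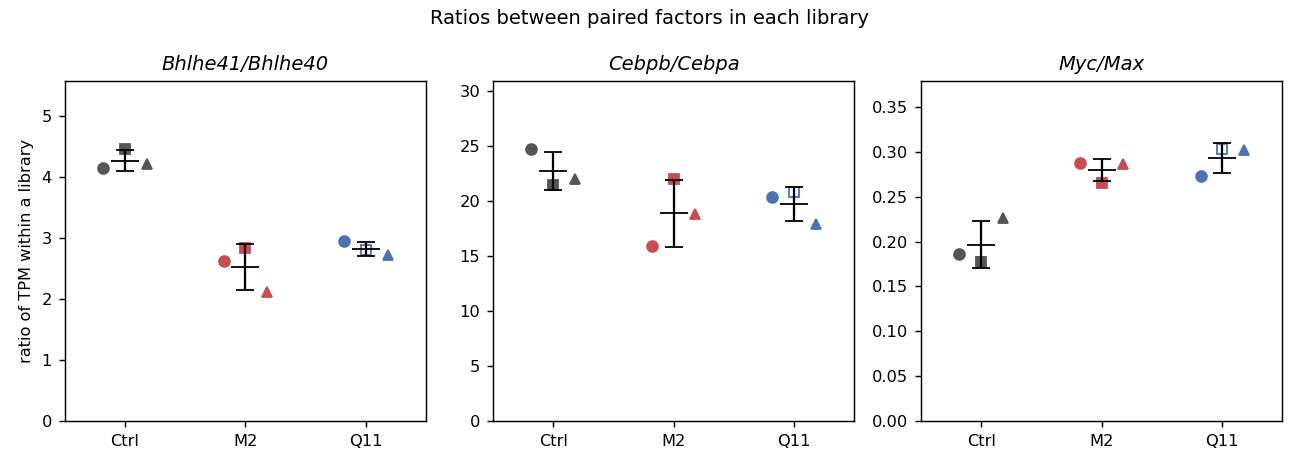
Ratio of Bhlhe41 to Bhlhe40, of Cebpb to Cebpa and of Myc to Max in each library, from TPM, with the mean and SD of 3 libraries; the open square is Q11 replicate 2. The Ctrl libraries stand apart from M2 and Q11 for Bhlhe41 to Bhlhe40 (4.14 and above against 2.94 and below) and for Myc to Max. For Cebpb to Cebpa, as deposited, they overlap with M2 and lie above Q11.

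Of 13 tested clock genes, a list not limited to known targets of the repressors, 1 rose and none fell in M2 against Ctrl. Over all genes tested, 12.6% were called. The median log2 difference of the clock genes was -0.016. In Q11 against M2 their median was 0.15 with none called, beside a median of -0.00088 over all genes tested. In Q11 against Ctrl the clock gene median was 0.12 with 2 of them higher. Over all genes tested, the median was then 0.0035 and 5.19% were higher. Separating the shared reads left these counts of clock genes unchanged, while the medians are given only as deposited. The gene that rose in M2 was Nfil3, a repressor of the clock output, from 59.7 to 88.9 TPM (log2 0.56, limma adjusted p = 0.00101).

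The E-box that these factors bind was searched for in the promoters, as the letters CACGTG on both strands, in the 250 bases before the start in RefSeq (GRCm38.p6). Of the 10 genes, 7 were matched there, with 10 windows in all, and Myc, Bhlhe40 and Ppargc1b were not. The RefSeq starts differ in places from the gene positions given in this text. The Bhlhe41 window (145865421 to 145865670) lies partly within the gene as placed above (145858243 to 145865558). Windows of Rxra and Pparg also lie wholly or partly within these genes as placed below. CACGTG was found in 2 of the 10 windows, against 6.02% of 32851 windows of the same length, and these were the windows of Bhlhe41, which fell in M2, and of Klf4. They are shown because they hold the sequence that BHLHE41, BHLHE40 and MYC are known to bind, with the E-box in capitals. The 10 windows had a median GC content of 70.0%, against 52.4% over all promoters, and the share of all windows is not matched for GC content. Such a match is a description of the sequence, not of binding. The type of site STAT6 prefers (TTC, then 4 bases of any kind, then GAA) was found in 0 of the 10 windows and in 5.85% of all windows, which says only that these letters are not in these windows. The Bhlhe41 window is chr6:145865421-145865670 and the Klf4 window chr4:55532476-55532725, both on the minus strand and written 5′ to 3′.
Bhlhe41: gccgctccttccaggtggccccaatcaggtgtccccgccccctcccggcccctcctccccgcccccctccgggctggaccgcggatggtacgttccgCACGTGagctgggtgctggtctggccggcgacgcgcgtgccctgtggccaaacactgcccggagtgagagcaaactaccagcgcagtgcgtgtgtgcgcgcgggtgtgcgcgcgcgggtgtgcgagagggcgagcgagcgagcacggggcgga
Klf4: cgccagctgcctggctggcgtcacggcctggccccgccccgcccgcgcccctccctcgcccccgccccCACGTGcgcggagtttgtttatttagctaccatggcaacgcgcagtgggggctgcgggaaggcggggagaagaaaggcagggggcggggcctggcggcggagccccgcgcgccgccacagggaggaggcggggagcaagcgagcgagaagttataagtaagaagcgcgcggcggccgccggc

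C/EBP alpha and C/EBP beta are bZIP factors of myeloid cells; C/EBP alpha drives myeloid commitment, and C/EBP beta is an inducible factor of activated macrophages. Cebpb, on chromosome 2 (167688915 to 167690418, plus strand), stood at 381, 372 and 434 TPM in Ctrl, 327, 368 and 299.9 TPM in M2, and 331, 374 and 333 TPM in Q11. Every M2 library lay below every Ctrl library, while the Q11 libraries overlapped with both, and Q11 replicate 2 stood at 423 TPM after separation. The log2 difference in M2 against Ctrl was -0.26 (95% interval -0.45 to -0.06), which did not pass the test (limma adjusted p = 0.0903, or 0.197 after separation). It passed in 3 of 19 alternatives: limma-voom on the recovered reads (0.00554), the same with shared reads separated (0.0171), and without M2 replicate 2 (0.0353).

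Cebpa, on chromosome 7 (35119293 to 35121928, plus strand), lay between 15.4 and 20.6 TPM in all 9 libraries, and the 3 groups overlapped. Its log2 difference in M2 against Ctrl was 0.02 (95% interval -0.23 to 0.27). The ratio of Cebpb to Cebpa was 21.5 to 24.7 in Ctrl, 15.9 to 22.0 in M2 and 17.9 to 20.8 in Q11 as deposited. M2 overlapped with both other groups, while every Ctrl library lay above every Q11 library. After separation, Q11 replicate 2 came to 24.3, so that Ctrl and Q11 overlapped as well. Cebpb shares 312 exon bases with Tmem189 on the other strand, which was not analysed here.

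Of 11 tested genes known as C/EBP targets in myeloid cells, 7 fell and 1 rose in M2 against Ctrl, with a median log2 difference of -0.42, and the same counts were found with the shared reads separated. Over all genes tested, 5.75% fell and 6.88% rose, and the other 7 listed genes in the table lay too low to be tested. Those that fell included Lyz2, lysozyme (6859 to 3595 TPM, log2 -0.93, limma adjusted p = 6.15e-06), and Ptgs2, a prostaglandin synthase (12.8 to 7.40 TPM, log2 -0.72). Arg1, arginase and a hallmark of M2 activation, was the gene that rose (log2 1.69, limma adjusted p = 0.0228). Its level went from 0.302 ± 0.186 TPM in Ctrl to 3.56 ± 2.36 TPM in M2. Arg1 passed the filter only through the cytokine groups, and was not called in Q11 against Ctrl (limma adjusted p = 0.0815). The list also holds macrophage markers such as Lyz2, Cd14 and Itgam, and it shares Il13ra1 and Arg1 with other lists below. It too was chosen with earlier results of these data known, so its counts and median are a description. In the C/EBP family list itself, of 6 tested genes only Trib1, an adaptor that sends C/EBP alpha to degradation, was called (log2 -0.22, limma adjusted p = 0.00607).

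PPARG and RXRA form a nuclear receptor pair that is activated by fatty acid ligands, and PGC-1 beta coactivates such receptors at mitochondrial and fatty acid oxidation genes. Pparg, on chromosome 6 (115360951 to 115490399, plus strand), was barely detected, with 3, 18 and 6 recovered reads in Ctrl, 25, 12 and 11 in M2 and 17, 28 and 12 in Q11. The Q11 replicate 2 count falls to 16 when the shared reads are taken out. In TPM these were 0.209, 1.20 and 0.416, then 1.68, 0.868 and 0.779, then 1.19, 0.998 and 0.813, and all groups overlapped. The log2 difference in M2 against Ctrl was 0.41, with a 95% interval from -0.24 to 1.06, so neither a rise nor its absence was shown. It was 0.95 with a pseudocount of 0.1, 1.07 in limma-voom and 0.23 to 0.66 leaving out each library in turn (lowest without M2 replicate 1, highest without Ctrl replicate 2), and was called in none of them. Counting error alone gives a coefficient of variation of 33.3% in Ctrl for this gene, against 86.1% observed between the libraries.

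Rxra, on chromosome 2 (27676440 to 27762957, plus strand), stood at 54.7, 54.2 and 55.1 TPM in Ctrl, 51.4, 51.7 and 51.9 TPM in M2 and 52.6, 48.5 and 45.9 TPM in Q11. The Ctrl libraries lay above all others, by a small margin. The log2 difference in M2 against Ctrl was -0.08 (95% interval -0.18 to 0.02, limma adjusted p = 0.314). Ppargc1b, on chromosome 18 (61298136 to 61400431, minus strand), stood at 19.3, 22.4 and 21.4 TPM in Ctrl, 25.1, 24.6 and 22.5 TPM in M2 and 22.9, 24.8 and 23.2 TPM in Q11. M2 and Q11 lay above Ctrl in every library, with a log2 difference of 0.19 in M2 against Ctrl (95% interval 0.04 to 0.34) that did not pass the test (limma adjusted p = 0.105).

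Of 16 tested partners and coregulators of the receptors, 1 rose and 1 fell in M2 against Ctrl. Over all genes tested, 6.88% rose and 5.75% fell (12.6% in either direction), so this count is near the share of all genes. Rara, a retinoic acid receptor that also pairs with RXRA, rose from 14.6 to 18.9 TPM (log2 0.35, limma adjusted p = 0.0120). Ppard, the relative of Pparg, fell from 11.6 to 8.60 TPM (log2 -0.39, limma adjusted p = 0.0156). Of 14 tested PPAR targets, 12 did not pass the test. Lpl, lipoprotein lipase, fell by 0.24 on the log2 scale. Acaa2, an enzyme of fatty acid oxidation, rose by 0.26, and this call was lost with the shared reads separated (limma adjusted p = 0.0913). Of 20 mitochondrial genes of the PGC-1 beta programme, 4 rose and 1 fell (12.6% of all genes were called). The median log2 difference of this list was 0.09. With the shared reads separated, 2 of its genes rose and none fell (9.22% of all genes were called). Those 2 were Uqcrc1, a subunit of respiratory complex III (217 to 248 TPM), and Atp5a1, a subunit of ATP synthase (837 to 938 TPM).

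IRF4 is the interferon regulatory factor that is known to act after KDM6B to support M2 genes, and KLF4 is a zinc-finger factor known to cooperate with STAT6. Irf4, on chromosome 13 (30749226 to 30766976, plus strand), was close to the detection limit, with 14, 26 and 38 reads in Ctrl, 32, 28 and 26 in M2 and 20, 38 and 18 in Q11, where replicate 2 falls to 20 after separation. In TPM these were 0.589, 1.05 and 1.59, then 1.298, 1.22 and 1.11, then 0.840, 0.815 and 0.735. The wide Ctrl range covered both other groups. The log2 difference in M2 against Ctrl was 0.12 (95% interval -0.38 to 0.62), or 0.25 with a pseudocount of 0.1 and 0.27 in limma-voom, none of them called. Klf4, on chromosome 4 (55527143 to 55532466, minus strand), stood at 16.6, 14.4 and 17.6 TPM in Ctrl, 16.5, 15.6 and 14.7 TPM in M2 and 13.8, 14.5 and 12.7 TPM in Q11. Ctrl and M2 overlapped, and the log2 difference was -0.05 (95% interval -0.24 to 0.14).

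Relatives and partners of IRF4 and relatives of KLF4 were listed as well. Of 10 tested interferon regulatory factors and partners of IRF4, 1 rose and 2 fell in M2 against Ctrl. Over all genes tested, 6.88% rose and 5.75% fell. Irf8, a lineage factor of macrophages, fell from 89.4 to 65.8 TPM (log2 -0.44, limma adjusted p = 4.63e-04), and Irf9, a subunit of the interferon complex ISGF3, fell by 0.39 on the log2 scale. Batf3, a partner of IRF4 and IRF8, rose from 8.41 to 15.3 TPM (log2 0.82, limma adjusted p = 0.00895). Of 11 tested Kruppel-like factors, 2 fell and none rose. Klf6 fell from 147 to 119 TPM (log2 -0.30). Klf2 fell by 0.26 on the log2 scale, a call lost with the shared reads separated (limma adjusted p = 0.0613). After separation 1 of the 11 Kruppel-like factors was called, against 9.22% of all genes tested, so this count is near the share of all genes. Kdm6b, the histone demethylase upstream of Irf4, stood at 5.00 and 4.17 TPM with no call (limma adjusted p = 0.287).

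Of 16 tested genes of IL-4 and STAT6 signalling, 3 rose, 1 fell and 12 did not pass the test in M2 against Ctrl, beside 6.88% higher and 5.75% lower over all genes. After separation 2 rose and 1 fell, with Akt1, a kinase, losing its call (limma adjusted p = 0.0371, then 0.0976), and Stat6 itself stood at 155 TPM in both groups (limma adjusted p = 0.926). Socs1, a feedback inhibitor of JAK signalling, rose from 1.53 to 7.10 TPM (log2 1.69), and Jak2 rose from 22.1 to 38.3 TPM. Il13ra1, the receptor chain that pairs with the IL-4 receptor for IL-13, fell from 28.9 to 16.9 TPM (log2 -0.74, limma adjusted p = 6.19e-04). Of the 18 M2 effector genes in the table, 8 lay too low to be tested, Retnla, Chil3, Ccl17 and Ccl22 among them. Of the other 10, 7 rose and none fell, and 6 rose after separation. Arg1 passed the filter only through the cytokine groups, so these counts describe the detected genes and not the whole list. Of 23 other factors linked to macrophage activation, 7 rose and 2 fell. Tfec, a factor known to be induced by IL-4, rose from 1.48 to 4.16 TPM. Ets2 fell from 150 to 108 TPM, and Hif1a from 58.7 to 46.6 TPM.

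**Figure D5:**
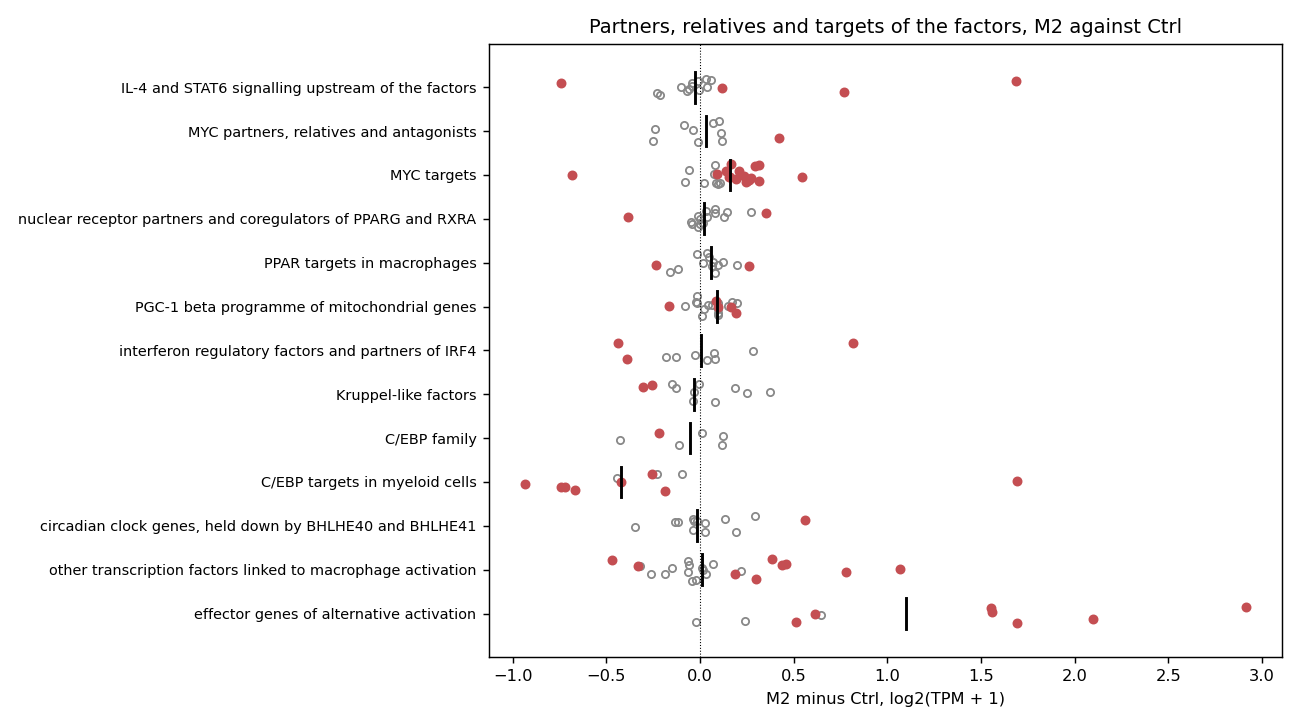
Log2 difference of each tested gene in the 13 lists around the factors in M2 against Ctrl, on the log2(TPM + 1) scale; filled red points are called genes, open points are not, and the black bar is the median of the list. The median of the MYC targets lies to the right of 0 (0.16) and that of the C/EBP targets to the left (-0.42), with single genes of both lists on the other side, and the effector genes reach the largest differences. The lists were chosen with earlier results of these data known.

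Q11 against M2 asks what Q11 added to the cytokines. None of the 10 genes passed the test. The same rule called none of the 14207 genes tested (0%; also 0% after separation), with 1620 genes at an unadjusted p under 0.05 and a smallest adjusted p of 0.213, and limma-voom on the recovered reads called 2 (0.0143%). The Q11 libraries lay wholly below the M2 libraries for Irf4 and Klf4, 2 of the 10 genes, against 8.43% of all genes tested that lay lower, 9.18% that lay higher and 17.6% in either direction. For Klf4 the log2 difference was -0.18 (95% interval -0.37 to 0.01, limma adjusted p = 0.455). After separation of the shared reads, Klf4 stood at 16.7 TPM in Q11 replicate 2, above every M2 library, and its log2 difference was -0.12. Irf4 remained below M2 in all libraries after separation, the only one of the 10 whose groups did not overlap, against 12.5% of all genes tested that did not overlap in either direction. Its log2 difference was -0.30 (95% interval -0.80 to 0.21, limma adjusted p = 0.632), or -0.54 with a pseudocount of 0.1 and -0.59 in limma-voom, neither called, on 18 to 38 reads in each Q11 library.

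For Myc the 95% interval of the fold in Q11 against M2, from the log2(TPM + 1) scale, ran from 0.895 to 1.14, and for Bhlhe41 from 0.984 to 1.16. These intervals count Q11 replicates 2 and 3 as separate libraries. After separation the log2 intervals were -0.17 to 0.19 for Myc and -0.01 to 0.27 for Bhlhe41. A p that misses the threshold does not show that the groups were equal. The log2 differences of Bhlhe40 (-0.07), Cebpb (0.06), Rxra (-0.08), Ppargc1b (-0.02), Cebpa (-0.01) and Pparg (-0.06) each had a 95% interval that included 0, and after separation the log2 difference was 0.12 for Cebpb, -0.04 for Rxra and 0.01 for Ppargc1b. None of the 13 lists around the factors held a called gene in this comparison.

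Q11 against Ctrl compares both treatments together with normal culture; it shares its Ctrl libraries with the M2 comparison, so they are not independent. Myc rose (log2 0.57, 95% interval 0.40 to 0.74, limma adjusted p = 0.00195) and Bhlhe41 fell by 0.33 on the log2 scale (limma adjusted p = 0.00461), and the other 8 did not pass. This rule called 10.7% of all genes tested, 5.19% higher and 5.53% lower, or 7.89% with the shared reads separated, where the adjusted p was 0.00255 for Myc and 0.0184 for Bhlhe41. Both held in all 19 alternatives, and limma-voom on the recovered reads called 15.1% of genes. The libraries did not overlap for 5 of the 10 genes, against 32.1% of all genes tested: Myc, Ppargc1b and Bhlhe40 above Ctrl, Rxra and Bhlhe41 below. After separation the count was again 5, against 26.7%. Bhlhe40 had a log2 difference of 0.24 (limma adjusted p = 0.0819) and Rxra of -0.16 (0.0630). Rxra passed in 3 of 19 alternatives, namely the filter at 5 TPM (0.0484), limma-voom on the recovered reads (0.0171) and the fit without Q11 replicate 1 (0.0136), and its adjusted p after separation was 0.199. Of the 25 MYC targets, 14 rose and none fell, or 10 with the shared reads separated.

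For the 3 called factors, the genes most alike across 8 libraries (without Q11 replicate 2) were sought among 9389 genes by Pearson's r of log2(TPM + 1), as a description with no test. The genes compared share the libraries and their group differences. For Myc these were Gpr183, a chemotactic receptor (r = 0.990, 32.8 TPM in Ctrl, 68.0 in M2 and 68.9 in Q11), Ptpra (0.989) and Jmjd1c (0.984). Among those for Bhlhe41 were Pim1, a serine/threonine kinase (r = 0.994, 73.9 TPM in Ctrl, 51.6 in M2 and 53.2 in Q11) and Alcam, an adhesion molecule (0.992). For Bhlhe40 they were Atp7a, a copper transporter (0.981), Tubgcp2 (0.972) and Nt5dc2 (0.969).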

How the data were processed

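Poly-A RNA from 9 libraries of J774A.1 cells was made into NEBNext Ultra libraries, per the labels' protocols. Per the submitters' processing notes, the tools were HISAT2 2.0.5 and StringTie 1.3.3b on GRCm38. Annotation release, strand and counting options are not given in the sources used here. Values are TPM as deposited by the authors in 1 table for all libraries, a unit that keeps no depth. Gene IDs were matched to GENCODE M21 (97.8% of 26157), whose exon lengths turned TPM into reads (whole to 0.1 read in 98.8% to 99.1% of values up to 20 reads).

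The test covered genes reaching 1 TPM in 3 or more libraries and was run with limma 3.58.1 (R 4.3.3) on log2(TPM + 1), with 1 mean per group over all 9 libraries and 6 residual degrees of freedom. Fold changes on that scale understate the change of low genes. Intervals are 95%. Alternatives were the pseudocount (0.1), the filter, normalization, trend, groups in the fit, a replicate block, leaving out each library, separating shared reads, and limma-voom on recovered reads. The fit was tested on simulated data with independent libraries, so that test did not cover libraries that share reads. The members and lists were chosen with earlier results of these data known. All members are named, and from each list up to 3 rising and 3 falling genes with the largest change, with further genes named after their values were seen. Some genes that the rule names are not reported here.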

Additional observations from a re-analysis of the deposited data

How the results depend on the processing

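Of the 10 genes, Myc and Bhlhe41 kept their calls in M2 against Ctrl and in Q11 against Ctrl in every alternative run, and none of the 10 was called in Q11 against M2 in any. The 5 TPM filter dropped Irf4 and Pparg.

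Bhlhe40 in M2 against Ctrl (log2 0.31) was lost with no filter (0.31, limma adjusted p = 0.0617), no trend (0.31, 0.0503) and only the groups compared (0.31, 0.0809), and ranged from 0.24 to 0.36 leaving out each library. Cebpb in M2 against Ctrl was called by limma-voom (-0.26 as deposited and -0.26 separated), with -0.33 to -0.19 leaving out each library. In Q11 against Ctrl, Rxra was called with the 5 TPM filter (-0.16) and limma-voom (-0.16), with -0.21 to -0.11 leaving out each library; limma-voom also called Bhlhe40 (0.27) and Cebpb (-0.18). Uncalled differences that changed sign were, leaving out each library in M2 against Ctrl, Irf4 (-0.060 to 0.291), Klf4 (-0.127 to 0.0096) and Cebpa (-0.0845 to 0.107). In Q11 against M2 they were Myc (-0.0080 to 0.0438), Pparg (-0.168 to 0.129), Ppargc1b (-0.0686 to 0.0050), Cebpa (-0.0766 to 0.0982) and Cebpb (-0.0062 to 0.141), with Ppargc1b also changing sign with shared reads separated (0.0137) and in limma-voom on them (0.0064). In Q11 against Ctrl it was Cebpa (-0.0691 to 0.0996, and -0.0050 in limma-voom separated).

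Genes called numbered 1794 in M2 against Ctrl, 1054 with only the groups compared and 1139 to 1651 leaving out each library, lowest without Ctrl replicate 1 and 1161 without Ctrl replicate 3. With the shared reads separated this comparison had 1292. In Q11 against Ctrl there were 1524, or 776 to 1613, lowest without Q11 replicate 3 and 798 without Q11 replicate 2. In Q11 against M2 there were 0, with 3 without a filter, 2 without the trend, 2 in limma-voom and 0 to 2 leaving out each library. The causes were not tested.

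The replicate numbers showed no sign of pairing. Same-numbered libraries correlated between -0.0309 and 0.0362 in their deviations from the group mean, and differently numbered ones between -0.0466 and 0.059. With so few libraries in a group, this cannot show that the libraries were unpaired. With the replicate block, 1335 genes were called in M2 against Ctrl and 1086 in Q11 against Ctrl, and adjusted p was 0.00575 for Myc, 0.0412 for Bhlhe40 and 0.00616 for Bhlhe41 in M2 against Ctrl. The block changed no call among the 10 genes.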
